A study of Mus musculus with 8 samples.

Results

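Transcripts of 43 genes of ribosome biogenesis and RNA polymerase I were compared between unloaded and weight bearing mouse muscle. The genes were taken by name and fall into 10 genes of RNA polymerase I and its initiation factors, 8 of the small nucleolar ribonucleoproteins (snoRNPs), 15 of small subunit processing, 8 of large subunit processing and 2 nucleolar proteins that act at several steps. Each of the 43 was represented by 1 of the 21212 probe sets of the array, and no filter removed any of them. The mice were female C57BL/6J, 7 weeks old and housed individually. In the unloaded group the hind limbs were held off the cage floor for 5 days, and the weight bearing group stayed on its feet. RNA came from the gastrocnemius and plantaris muscles, with 4 independent samples per group, labelled as biological replicates and each on its own array. All values are log2 expression values, on which a difference of 1 is a doubling.

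Ribosomes are built in the nucleolus. RNA polymerase I transcribes the ribosomal DNA into a long precursor, snoRNPs guide the methylation and pseudouridylation of that precursor, and assembly factors fold and cleave it into the small and large subunits. In skeletal muscle the capacity to make ribosomes is one of the determinants of protein synthesis, and it is known to respond to loading.

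After 5 days of unloading 9 of the 43 transcripts were higher (20.9%) and 0 were lower at a limma adjusted p under 0.05, the threshold for every call below. Over all probe sets 12.8% were higher and 11.0% lower. The 9 were Polr1b, Polr1c and Taf1c of RNA polymerase I, Wdr43, Nop14 and Nob1 of the small subunit, Gnl3 and Rrp1b of the large subunit, and nucleolin (Ncl). None of the snoRNP proteins was called. The changes were small, with Wdr43 the largest at 1.33-fold, and Wdr43 and Nop14 were the 2 members that changed by at least 1.2-fold. Among the 10606 probe sets above the median level 16.5% were higher and 18.4% lower, and the 40 members among them held all 9 of the higher calls (22.5%) and 0 lower ones. The median log2 change over the 43 members was 0.09, against 0.04 over all probe sets. The difference between these medians, 0.042, was 0.020 without unloaded array 1, 0.024 without weight bearing array 4, 0.079 without weight bearing array 3, 0.081 without the dimmest 50% of probe sets and 0.083 after quantile normalization. By the methods' t-test 6 members were higher and 0 lower. The 6 were Polr1b, Polr1c, Wdr43, Nop14 and Nob1 of the 9, and Pes1, which limma did not call. Over all 21212 probe sets that test called 1393 higher and 1374 lower. At an unadjusted p under 0.05 15 members were higher and 1 lower, against 4669 and 3262 of all probe sets. The number of members called by limma fell to 5 without weight bearing array 2, without unloaded array 1 or without unloaded array 3. In whole muscle, fewer cells of a type and less RNA per cell cannot be told apart.

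**Figure D1:**
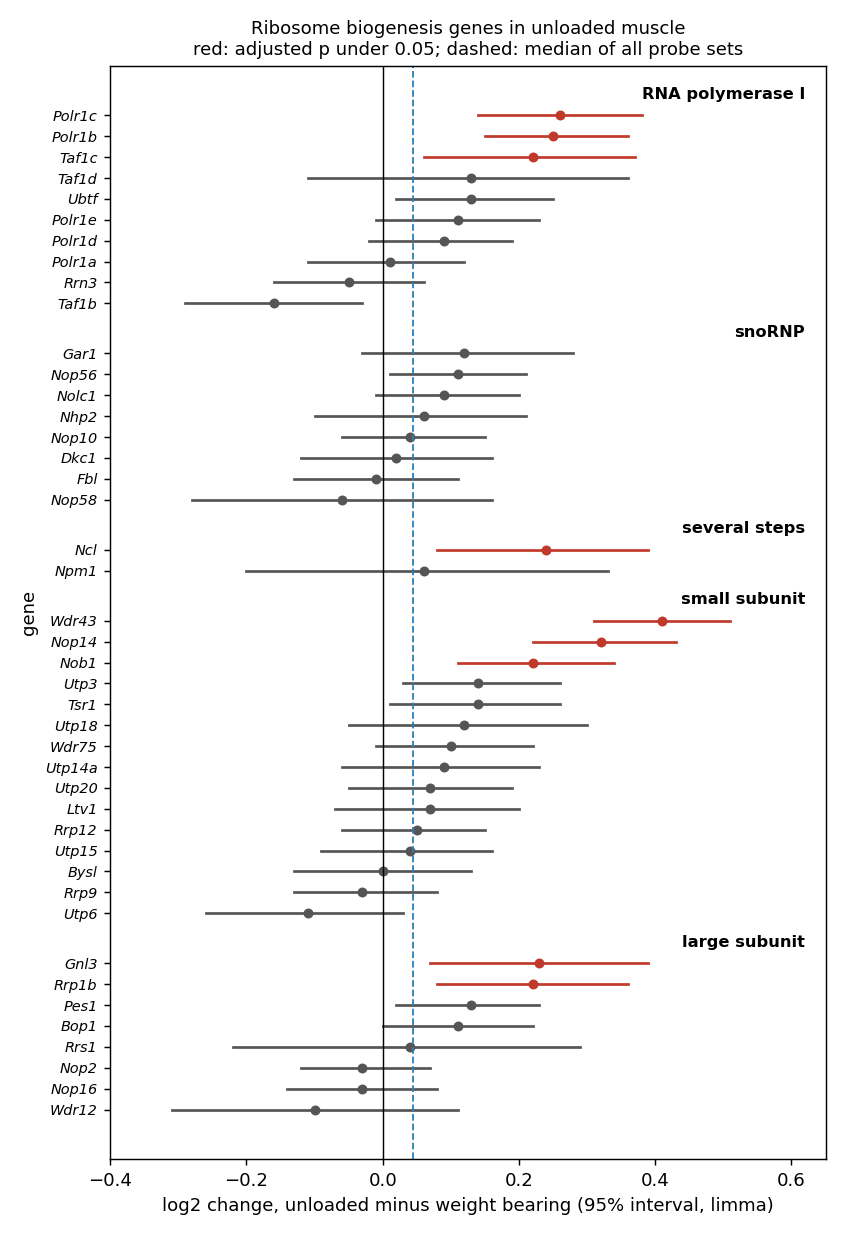
Log2 change (unloaded minus weight bearing, x axis) of each of the 43 genes (y axis, grouped by step), as the limma estimate with its 95% interval over 4 arrays per group. Red marks the 9 genes called higher, from 0.22 to 0.41, and the dashed line marks the median of all probe sets at 0.04. The 8 snoRNP genes hold no call (of all probe sets 12.8% were higher and 11.0% lower) and lie between -0.06 and 0.12.

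The proximal promoters of the 5 genes whose calls held in every setting without a minimum fold change are given first, because these are the most stable changes of the set. Those of Rrn3 and Nop2, which were not called, follow because they hold motifs looked for in all promoters. Each sequence is the 100 bases before the RefSeq start site of the gene in GRCm38.p6, read 5′ to 3′ on the strand of the gene, and capitals mark CACGTG or CCGGAAG.
Wdr43, chr17:71616115-71616214, plus strand: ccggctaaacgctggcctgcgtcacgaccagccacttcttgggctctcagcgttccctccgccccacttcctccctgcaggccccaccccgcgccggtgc
Nop14, chr5:34660149-34660248, minus strand: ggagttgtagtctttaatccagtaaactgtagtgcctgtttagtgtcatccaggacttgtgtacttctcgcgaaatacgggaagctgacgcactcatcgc
Polr1b, chr2:129100896-129100995, plus strand: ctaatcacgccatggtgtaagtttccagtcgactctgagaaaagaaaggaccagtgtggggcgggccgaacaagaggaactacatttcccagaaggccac
Polr1c, chr17:46248046-46248145, minus strand: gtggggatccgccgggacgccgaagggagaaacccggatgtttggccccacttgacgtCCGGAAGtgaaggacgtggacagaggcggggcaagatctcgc
Nob1, chr8:107425039-107425138, minus strand: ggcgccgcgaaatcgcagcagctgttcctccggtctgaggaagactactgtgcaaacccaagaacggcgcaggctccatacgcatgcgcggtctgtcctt
Rrn3, chr16:13780599-13780698, plus strand: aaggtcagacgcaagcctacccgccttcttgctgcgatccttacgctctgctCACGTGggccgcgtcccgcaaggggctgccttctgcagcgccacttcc
Nop2, chr6:125131783-125131882, plus strand: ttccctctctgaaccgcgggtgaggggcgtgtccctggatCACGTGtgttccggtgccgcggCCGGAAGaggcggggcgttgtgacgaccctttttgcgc

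The promoters of the called genes did not share 1 base composition. The 100 bases before Wdr43 were 71.0% G and C and those before Nop14 47.0%. In the longer window from 250 bases before to 50 bases after the start site, 37 of the 43 members had an entry, with 46 promoters among them, and their median G and C content was 58.7% against 52.7% over all 32851 promoters of mouse genes. CACGTG, the E-box to which Myc and Max bind among other factors, stood in 8 of the 46 promoters (17.4%) and in 7.15% of all promoters. Of the 9 called genes 1, Wdr43, had it, starting 18 bases after the start site, and of the 28 other genes with an entry 7 had it. CCGGAAG, a core sequence of ETS factors, stood in 13 of the 46 (28.3%) and in 8.86% of all promoters. It was present in 2 of the 9 called genes (Polr1c and Taf1c) and in 11 of the 28 others. TATAAA stood in 2 of the 46 (4.35%) and in 13.6% of all promoters. The part of the difference in G and C content in the shares of these motifs was not tested. Both strands were searched, and no pair of these motifs can share a base. A match is a description of the letters and does not show that a factor binds there. Bop1, Fbl, Npm1, Rrp12, Rrs1 and Utp6 had no entry in the table.

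RNA polymerase I and its factors had 3 of 10 genes higher (30.0%, against 12.8% of all probe sets) and 0 lower (against 11.0%). The median log2 change was 0.12. Polr1b encodes the second largest subunit of the enzyme. It measured 8.00, 8.02, 8.09 and 7.99 on weight bearing arrays 1 to 4 and 8.30, 8.25, 8.23 and 8.33 on unloaded arrays 1 to 4. Every unloaded array lay above every weight bearing one, and the mean rose 1.19-fold (95% interval 1.11 to 1.28, limma adjusted p = 0.00431). Polr1c, a subunit shared with RNA polymerase III, measured 8.59, 8.48, 8.39 and 8.45 under weight bearing and 8.71, 8.67, 8.76 and 8.79 after unloading. Its groups did not overlap either, and it rose by 19.6%, just under 1.2-fold (interval 1.10 to 1.3-fold, limma adjusted p = 0.00801). Taf1c is a subunit of selectivity factor SL1, which brings the polymerase to the ribosomal DNA promoter. It measured 6.72, 6.81, 6.69 and 6.96 under weight bearing and 6.97, 6.94, 7.12 and 7.01 after unloading. The highest weight bearing array reached into the unloaded range, and the 1.16-fold rise had a limma adjusted p of 0.0449. The Taf1c call was lost without any single array other than weight bearing array 4 (limma adjusted p from 0.0566 to 0.115) and by the methods' t-test (0.113).

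The other 7 genes of RNA polymerase I were not called. Polr1a, the largest and catalytic subunit, averaged 8.69 ± 0.08 and 8.70 ± 0.03 (SD, n = 4 each), a log2 difference of 0.01 with a 95% interval from -0.11 to 0.12. Taf1b, a partner of Taf1c in SL1, measured 6.63, 6.52, 6.64 and 6.53 under weight bearing and 6.44, 6.46, 6.29 and 6.49 after unloading. It was the only member of the 43 with every unloaded array below every weight bearing one, a pattern seen in 12.0% of all probe sets. Its difference of -0.16 had a limma adjusted p of 0.0659, and it was called lower when the dimmest 25% of probe sets were left out (0.0492). Taf1d, also of SL1, was the most scattered of the step, at 0.13 with an interval from -0.11 to 0.36. Ubtf, the factor that binds along the ribosomal DNA, differed by 0.13 (limma adjusted p = 0.0908), and it was called higher without weight bearing array 4 (0.0467). Polr1e differed by 0.11 (0.177) and Polr1d, shared with RNA polymerase III, by 0.09 (0.199). Rrn3, the growth-regulated factor that makes the polymerase competent to initiate, was at 9.51 ± 0.04 and 9.46 ± 0.06 (SD, n = 4 each), a difference of -0.05 (-0.16 to 0.06).

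**Figure D2:**
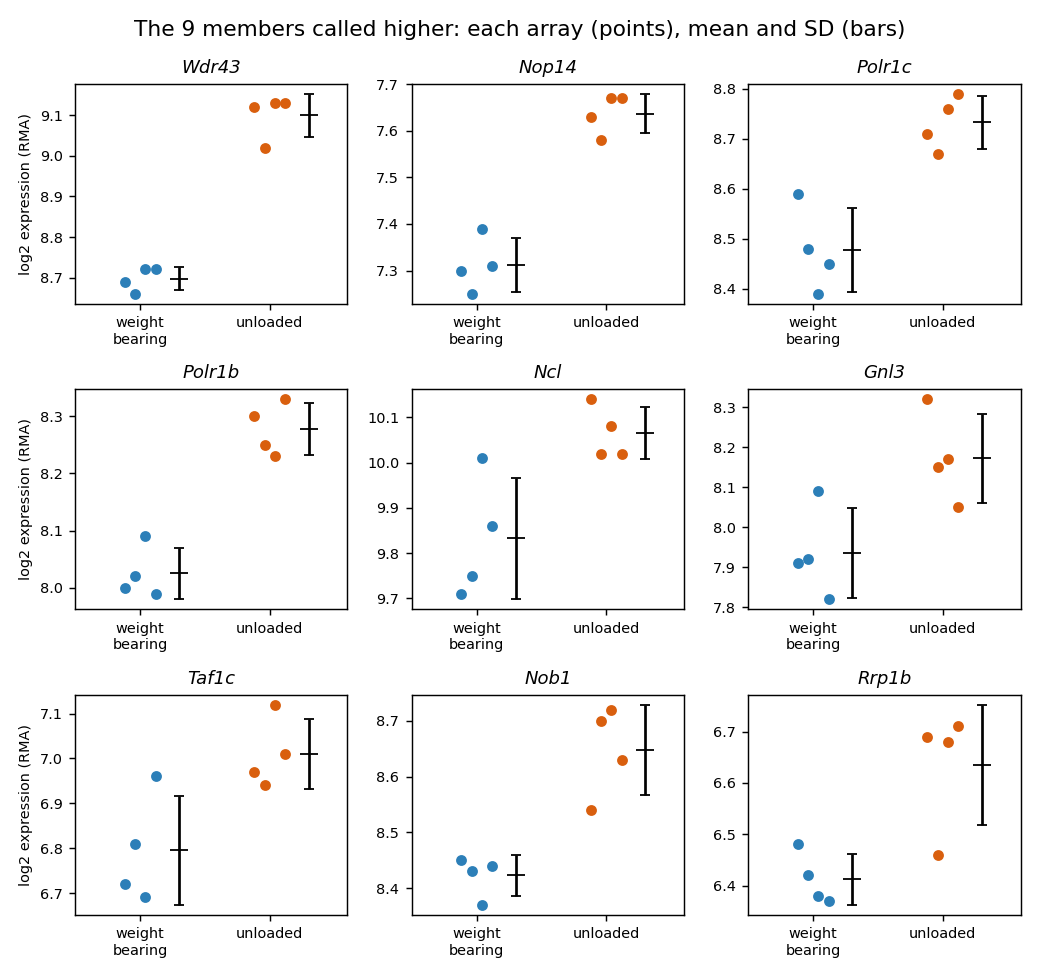
Log2 expression (y axis, 1 scale per panel, not starting at 0) of the 9 genes called higher, with each array as a point and the mean and SD beside it, weight bearing in blue and unloaded in orange. The groups are separate for Wdr43, Nop14, Polr1b, Polr1c, Nob1 and Ncl, and they overlap for Taf1c, Gnl3 and Rrp1b.

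The snoRNP proteins gave 0 calls in 8 genes, with a median change of 0.05 by limma. Among all probe sets 12.8% were higher and 11.0% lower, and 8 genes are too few to set 0 calls apart from these shares. At an unadjusted p under 0.05 there was 1 (Nop56), by the methods' t-test 0, and 1 (Nop56 again) where that test took equal variances. Fibrillarin (Fbl), the methyltransferase of the box C/D particles, measured 10.27, 10.26, 10.28 and 10.32 under weight bearing and 10.15, 10.30, 10.37 and 10.27 after unloading. The groups lay over each other, and the difference of -0.01 had a 95% interval from -0.13 to 0.11. Its partners Nop56 and Nop58 stood at 0.11 (limma adjusted p = 0.107) and -0.06. Nop56 was the one snoRNP gene with every unloaded array above every weight bearing one, a pattern seen in 15.5% of all probe sets. In the box H/ACA particles, the pseudouridine synthase dyskerin (Dkc1) stood at 0.02 and its partners Gar1, Nhp2 and Nop10 at 0.12, 0.06 and 0.04. Nolc1, a chaperone of both kinds of particle, stood at 0.09. For the 8 genes together the 95% intervals ran from 0.82-fold to 1.21-fold, so larger changes of any of them lie outside its interval.

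Ncl and Npm1, the abundant nucleolar proteins nucleolin and nucleophosmin, differed in how their arrays separated. Ncl measured 9.71, 9.75, 10.01 and 9.86 under weight bearing and 10.14, 10.02, 10.08 and 10.02 after unloading, so that the groups were apart by a narrow margin. It rose 1.18-fold (1.06 to 1.31, limma adjusted p = 0.0316). The call was lost without any single array other than weight bearing array 3 (0.0509 to 0.0829) and by the methods' t-test (0.116). Npm1 measured 9.11, 8.99, 9.27 and 8.80 under weight bearing and 9.28, 9.05, 9.26 and 8.82 after unloading. Each group spread widely and over the same range, and its difference of 0.06 had an interval from -0.20 to 0.33.

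Small subunit processing had 3 of 15 genes higher (20.0%, against 12.8% of all probe sets) and 0 lower (against 11.0%). The median change was 0.09, and the step held Wdr43 and Nop14, which changed most among the 43 genes. Wdr43 belongs to the complex that joins the precursor first and is also needed for its transcription. It measured 8.69, 8.66, 8.72 and 8.72 under weight bearing and 9.12, 9.02, 9.13 and 9.13 after unloading, a rise of 1.33-fold (1.24 to 1.42, limma adjusted p = 2.5e-04). The gap between the groups was wider than the whole range of either. Nop14, a factor of the early small subunit particle, measured 7.30, 7.25, 7.39 and 7.31 under weight bearing and 7.63, 7.58, 7.67 and 7.67 after unloading. Its groups were also apart, and it rose 1.25-fold (1.16 to 1.35, limma adjusted p = 0.00130). Nob1, the endonuclease that makes the last cut of the small subunit rRNA in the cytoplasm, measured 8.45, 8.43, 8.37 and 8.44 under weight bearing and 8.54, 8.70, 8.72 and 8.63 after unloading. All unloaded arrays lay above all weight bearing ones, and the rise was 1.17-fold (1.08 to 1.26, limma adjusted p = 0.0124). All 3 were called without each array in turn and by the methods' t-test.

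The remaining 12 small subunit genes were not called, and their log2 changes lay between -0.11 and 0.14. Utp3 and Tsr1 stood highest at 0.14 each (limma adjusted p = 0.0745 and 0.0981). In both every unloaded array lay above every weight bearing one, as in 15.5% of all probe sets. The complex to which Wdr43 belongs also holds Wdr75 and Utp15, whose differences were 0.10 and 0.04. Utp18 and Utp6, partners in another early complex, stood on opposite sides of 0 at 0.12 and -0.11. Rrp9, a protein of the U3 snoRNP, stood at -0.03. Utp14a, Utp20 and Rrp12 stood at 0.09, 0.07 and 0.05. Of the factors that act with Nob1 on late particles, Ltv1 stood at 0.07 and Bysl at -0.00. The intervals of the 12 reached from -0.26 to 0.30.

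Large subunit processing had 2 of 8 genes higher (against 12.8% of all probe sets) and 0 lower (against 11.0%). With 8 genes these counts are too small to be set apart from those shares. The median change was 0.07, and both higher calls were close to the threshold. Gnl3, the nucleolar GTPase nucleostemin, measured 7.91, 7.92, 8.09 and 7.82 under weight bearing and 8.32, 8.15, 8.17 and 8.05 after unloading. The lowest unloaded array lay below the highest weight bearing one, and the rise was 1.18-fold (1.05 to 1.31, limma adjusted p = 0.0406). Rrp1b, a nucleolar protein of the large subunit particles, measured 6.48, 6.42, 6.38 and 6.37 under weight bearing and 6.69, 6.46, 6.68 and 6.71 after unloading. Unloaded array 2 sat among the weight bearing arrays and the other 3 above them, and the rise was 1.17-fold (1.06 to 1.28, limma adjusted p = 0.0282). Neither was called by the methods' t-test (0.103 and 0.102). Gnl3 was called without weight bearing array 3 or without unloaded array 4 and lost without any other array (0.0755 to 0.0948). Rrp1b was called without weight bearing array 1 or unloaded array 2 and lost without any other (0.0545 to 0.0761).

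Pes1, Bop1 and Wdr12 form the PeBoW complex of large subunit processing, and none of them was called. Pes1 stood at 0.13 with every unloaded array above every weight bearing one. Its limma adjusted p was 0.0720, and the methods' t-test called it (0.0420). Bop1 stood at 0.11 (limma adjusted p = 0.131). Wdr12 stood at -0.10 with an interval from -0.31 to 0.11, the lowest limit of any member. Nop2, an rRNA methyltransferase, and Nop16 both stood at -0.03. Rrs1, which helps to place the shortest rRNA in the large subunit, stood at 0.04 with an interval from -0.22 to 0.29.

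Across the 43 genes 33 stood above 0 and 10 below. The array as a whole also leaned upward, with 13023 of 21212 probe sets above 0 and 8189 below. In 11 members every unloaded array lay above every weight bearing one (15.5% of all probe sets did so) and in 1, Taf1b, below. Of the 34 genes not called, 26 had 95% intervals that lay wholly within 1.2-fold of no change, and no interval of the 34 went beyond -0.31 or 0.36. The arrays of a group were not equal across the set. Averaged over the 43 genes and set against the weight bearing mean, the weight bearing arrays stood at 0.02, -0.03, 0.05 and -0.04 and the unloaded ones at 0.12, 0.06, 0.12 and 0.05. Unloaded array 4 therefore stood level with weight bearing array 3 to 2 decimals. In both groups arrays 1 and 3 stood above arrays 2 and 4. Within the weight bearing group array 3 was the highest for 22 of the 43 genes, and arrays 2 and 4 were the lowest for 18 each. Within the unloaded group array 4 was the lowest for 21.

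**Figure D3:**
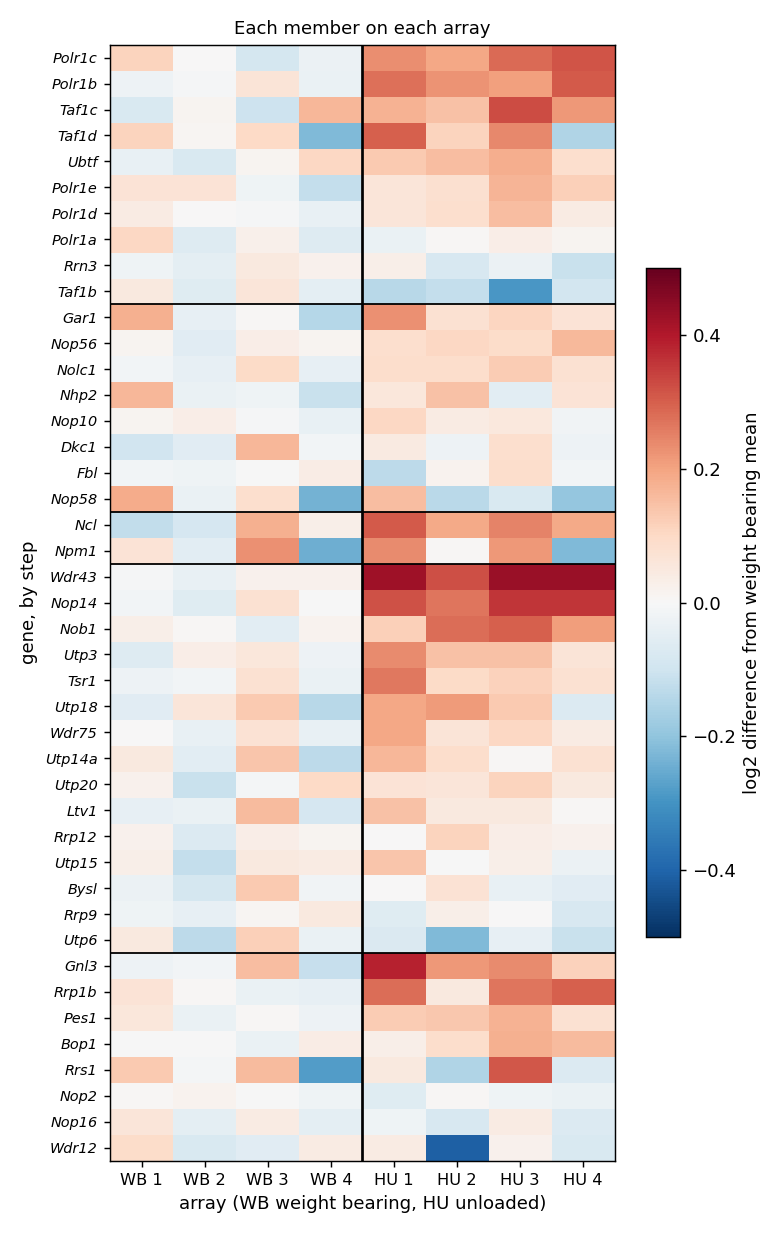
Log2 difference of each of the 43 genes (rows, grouped by step) from its weight bearing mean on each of the 8 arrays (columns). Red is above that mean and blue below it. Wdr43 and Nop14 are red on all 4 unloaded arrays, Taf1b is blue on all 4, and weight bearing array 3 is the highest of its group for 22 genes.

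In 8 of the members RefSeq places snoRNA genes within the span of the host gene (Taf1d 6, Nop56 5, Nop58 4, Wdr43 3, Gnl3 3, Ncl 2, Dkc1 1 and Tsr1 1). Such snoRNAs are cut from introns, so host genes supply RNA as well as protein to the same pathway. Of these 8 members 3 were higher (37.5%), with a median change of 0.13. Among the other 35 members 6 were higher (17.1%), with a median of 0.07. The shares over all probe sets were 12.8% higher and 11.0% lower. These calls are by limma, and the methods' t-test called 1 of the 8 and 5 of the 35 higher. The array holds 13 snoRNA probe sets with a symbol, of which 3 were higher and 0 lower by limma (5 and 0 at an unadjusted p under 0.05, none by the methods' t-test). Those 3 were Snord34 (0.32, limma adjusted p = 0.0103), Snord33 (0.28, 0.0232) and Snord35a (0.22, 0.0367), named after their values were seen, and all are known as snoRNAs of the ribosomal protein gene Rpl13a. Snord32a, also of Rpl13a, was not called (0.10, 0.246). Snord82, which lies within Ncl and was also named after its value was seen, stood at -0.11 (0.289) while its host was called higher.

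The rest of the pathway was read from lists of further ribosome biogenesis genes, of which 120 of 126 were measured. Of these 28 were higher (23.3%, against 12.8% of all probe sets) and 3 lower (2.5%, against 11.0%) by limma. The median change was 0.10. The methods' t-test called 20 higher and 2 lower. The large subunit factors held 16 of the higher calls among 49 measured, with 0 lower. The largest were Eif6 (1.31-fold, limma adjusted p = 0.00230), the factor that keeps the subunits apart, Ddx56 (1.3-fold, 0.00117) and Ddx51 (1.23-fold, 0.00307), both RNA helicases, and Sbds (1.23-fold, 0.00506), which acts in the release of Eif6. Among 36 further small subunit factors 6 were higher and 1 lower. Riok3, an atypical kinase of late particles, rose 1.43-fold (1.1e-04), more than any member, and Pno1, a partner of Nob1 named after its value was seen, fell by 0.24 on the log2 scale (0.0127). Among 14 further genes of RNA polymerase I 2 were higher, Tcof1 (1.21-fold, 0.0120), the nucleolar protein treacle, and Mybbp1a (1.16-fold, 0.00835). The 1 that was lower, Polr2f, is a subunit shared by all of the nuclear RNA polymerases (-0.15, 0.0372). Among 13 genes of the RNA exosome and trimming 3 were higher, Exosc5 (1.27-fold), Exosc1 (1.22-fold) and Exosc10 (1.2-fold), and 0 lower. Among 8 further snoRNP genes 1 was higher (Nufip1, 0.18) and 1 lower (Pih1d1, -0.21), both of which act in snoRNP assembly.

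RNA polymerase III makes the shortest rRNA of the large subunit and the transfer RNAs. Of its 22 genes 7 were higher (31.8%, against 12.8% of all probe sets) and 1 lower (4.55%, against 11.0%), with a median change of 0.04. Maf1, which represses that polymerase, rose most (1.37-fold, limma adjusted p = 1.8e-04), followed by the subunits Polr3c and Polr3e (1.29-fold each, 0.00168 and 0.0010) and Polr3f (1.24-fold, 0.0151). The cytosolic ribosomal proteins, the building blocks that these factors assemble, had calls in both directions. Of 79 listed 43 were measured, of which 7 were higher (16.3%, against 12.8% of all probe sets) and 2 lower (4.65%, against 11.0%), with a median of 0.01, close to the median of all probe sets. Rpl27a fell by 0.37 (0.00280) and Rps6 by 0.25 (0.0332), while Rpl6 and Rps20 stood at 0.34 each (0.00244 and 0.0223). The methods' t-test called 3 higher and 1 lower, and leaving out single arrays moved these counts to between 1 and 7 and between 1 and 3. Genes of near-identical copies, as ribosomal proteins and their pseudogenes are, can share probes.

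Myc, the transcription factor best known for driving ribosome biogenesis genes, measured 7.51, 7.64, 7.70 and 7.29 under weight bearing and 8.04, 8.00, 7.70 and 7.73 after unloading. The groups touched at 7.70, and the rise was 1.26-fold (limma adjusted p = 0.0434, 0.135 by the methods' t-test). Its partner Max stood at 0.12 (0.0894). The antagonists Mxi1, Mxd1 and Mxd4, which compete with Myc for Max, were higher by 0.32, 0.28 and 0.15. Over the 12 genes of this network 4 were higher (33.3%, against 12.8% of all probe sets) and 0 lower (against 11.0%).

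**Figure D4:**
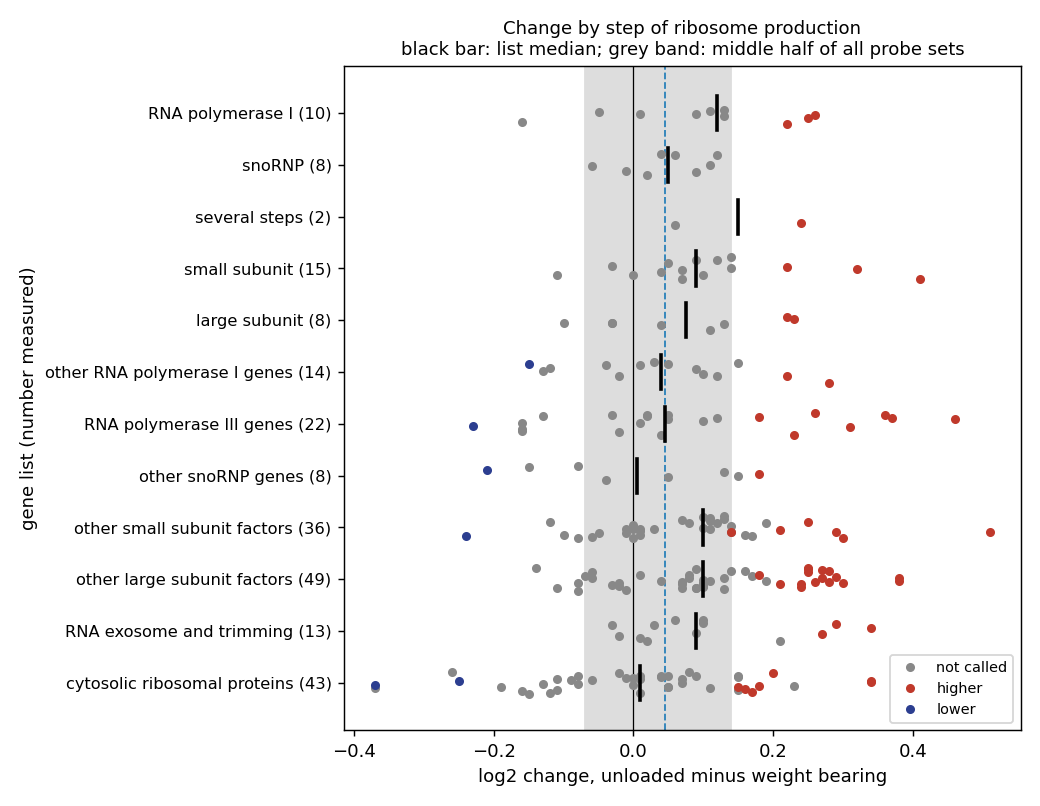
Log2 change of each gene (points, x axis) by list (y axis, number measured in brackets), with black bars at the list medians and a grey band from -0.07 to 0.14, the quartiles of all probe sets. Points in red were called higher and in blue lower. Factors of the large subunit outside the 43 genes hold 16 red points and no blue one, and the ribosomal proteins have their median at 0.01.

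The muscles held other cells as well, and markers of some of them moved with unloading. For comparison, 12.8% of all probe sets were higher and 11.0% lower. The muscle fibre markers were bright, led by Atp2a1, Acta1 and Ckm, with summed linear levels of 73966 to 75957 under weight bearing and 68168 to 69652 after unloading (3 of 12 lower). Fibroblast and matrix markers had 7 of 10 lower and summed levels of 13754 to 15434 against 9818 to 10228, although the brightest, Dcn and Gsn, were not called (-0.02 and -0.11). Macrophage markers had 7 of 14 lower, among them Lyz2 (-0.40), C1qb (-0.59) and Mrc1 (-0.69), and sums of 2613 to 3119 against 1984 to 2492. Satellite cell and myoblast markers had 2 of 8 higher and 1 lower, with sums of 1308 to 1520 against 1521 to 1603. Cdh15, the brightest of the 8, was higher (0.68), while the next brightest, Myod1 and Ncam1, were not called (0.24 and -0.06). Endothelial markers had 2 of 10 lower (4578 to 5093 against 4401 to 4533), and proliferation markers 1 of 11 lower (430 to 600 against 417 to 461). Lymphocyte markers and those of adipocytes and Schwann cells had 0 of 8 each called in either direction by limma, with sums of 252 to 268 against 251 to 268 and 1937 to 4015 against 2516 to 3552. At an unadjusted p under 0.05 the lymphocyte list had 3 and the other list 0, against 7931 of all 21212 probe sets. The methods' t-test called 0 in both lists. No list had a defining marker at 0, since the array gives every probe set a level. The part of these marker differences in the changes of the ribosome biogenesis genes was not tested.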

How the data were processed

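RNA of 8 muscle samples was measured on Affymetrix Mouse Gene 1.0 ST arrays. Robust multi-array analysis (RMA) was run by the authors over all 8 arrays together, with custom probe sets, and they deposited log2 expression values, 1 per Entrez gene. RMA subtracts background, gives all arrays the same distribution and combines the probes of a gene, so a change is relative to all other transcripts. The submitters' processing notes name RMA, with no version given in the sources used here, and the same holds for the release and build of the custom probe sets.

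The deposited values were used as they were, without a filter. No 2 arrays were identical, 0 columns were left unused, and array medians lay between 6.28 and 6.33. Correlations between arrays were 0.996 to 0.997 within groups and 0.992 to 0.994 between them. All 43 members matched by current symbol. Of 364 listed genes 321 were measured, each by 1 probe set, and the rest were not analysed here. Groups were compared with limma 3.58.1 (lmFit, eBayes, two-sided) in R 4.3.3, adjusted by Benjamini-Hochberg over 21212 probe sets. Marker sums add linear levels. Python 3.11.15, pandas 2.3.3, numpy 2.4.6 and matplotlib 3.10.9 served the rest. Promoters came from RefSeq (GRCm38.p6), and snoRNA hosts from its gene spans without regard to strand. The fit was checked on simulated data. The number of arrays limits the precision.

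Members and gene lists were chosen with earlier results of these data known. Named were all members, up to 4 called genes with the largest change per further list, up to 3 bright markers per cell type, and Myc and Max. Alternatives were the methods' t-test (unequal variances, adjusted by Benjamini-Hochberg), equal variances, an intensity trend with robust variance, array weights, an unadjusted p, a minimum of 1.2-fold, no dimmest 25% or 50%, quantile normalization, centred medians, the replicate number as a block, and each array left out. The paper names a parametric t-test with limits on p and q-value, run in other software. The test called the methods' t-test here is a version of it, and its calls can differ from the paper's.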

Additional observations from a re-analysis of the deposited data

Results flagged for a closer look

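In 5 of the 86 groups of 4 arrays formed by the 43 genes and the 2 conditions (5.81%), 1 array lay far from the other 3 by Dixon's criterion, which chance alone meets in about 5% of groups. Wdr43 was 9.02 on unloaded array 2 and 9.12 to 9.13 on the others, still above all of its weight bearing arrays. Rrp1b was 6.46 on unloaded array 2 and 6.68 to 6.71 on the others. Nolc1 was 8.14 on unloaded array 3 and 8.09 to 8.10 on the others. Under weight bearing, Utp15 was 6.26 on array 2 against 6.41 to 6.43, and Tsr1 was 7.81 on array 3 against 7.70 to 7.72.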

How the results depend on the processing

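The 9 members called higher became 15 at an unadjusted p under 0.05, 2 with a minimum of 1.2-fold, and 5 to 7 when single arrays were left out. Quantile normalization kept the 9 and added Pes1 and Tsr1 (limma adjusted p = 0.0322 and 0.0496). Without the dimmest 50% the 9 were kept, and Ubtf, Utp3 and Pes1 were added (0.0477, 0.0376 and 0.0316). Wdr43 and Nop14 were called under all 19 alternatives, and Polr1b, Polr1c and Nob1 under all but the minimum of 1.2-fold. Taf1c was lost in 11, Ncl and Gnl3 in 10 each and Rrp1b in 9. Members called lower numbered 0, or 1 (Taf1b, of RNA polymerase I) at an unadjusted p and without the dimmest 25% or 50%. By step, a minimum of 1.2-fold left 0 genes higher in RNA polymerase I and 0 in the large subunit. The unadjusted p gave 5 in the small subunit, 4 in the large subunit and 1 snoRNP gene, and equal variances 1 snoRNP gene. The large subunit had 1 by the methods' t-test and with equal variances (Pes1), 1 with centred medians (Rrp1b), and 0 to 1 with single arrays left out. The further pathway genes had 45 higher at an unadjusted p and 16 with 1.2-fold, with 0 lower under the latter and 1 to 2 lower with single arrays left out. Ribosomal proteins called higher were 3 by the methods' t-test and 3 with the replicate block, 2 with 1.2-fold and 1 to 7 with single arrays left out. Those called lower were 1 by the methods' t-test and with 1.2-fold, 4 at an unadjusted p and 1 to 3 with single arrays left out. The members' median change stayed between 0.07 and 0.12. Over all probe sets the methods' t-test called 1393 higher and 1374 lower against 2715 and 2324 by limma, and 1802 were higher without unloaded array 3. At an unadjusted p 4669 of all 21212 probe sets were higher and 3262 lower. Beyond the fewer arrays, the fewer probe sets or the other threshold of each alternative, the cause was not tested.

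The labels do not say that same-numbered samples share anything. Over all probe sets their deviations from the group means correlated at 0.0242, 0.0366, 0.12 and 0.0954, and 6 of 8 arrays were closest to their own number. Averaged over the 43 members, arrays 1 and 3 stood above arrays 2 and 4 in both groups. These are hints from the data that leave pairing unsettled. With the replicate number as a block 8 members were higher, with Taf1c at a limma adjusted p of 0.0696. With 4 arrays per group, changes under about 1.2-fold are often not resolved, and a member that was not called may still differ within its interval.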
